A study of Mus musculus with 6 samples.

Results

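The TALE homeobox genes Meis1, Meis2, Meis3, Pbx2, Pbx3, Pbx4, Pknox1 and Pknox2 were examined in AE9a leukemia cells with and without Ddit4. These 8 genes were found by symbol in a count table of 55421 genes. The rule used no threshold on measured values, but earlier results of these data were known when the genes were chosen. AE9a is a shortened AML1-ETO fusion protein that causes acute myeloid leukemia in mice. Both groups derived from c-Kit+ bone marrow cells of C57BL/6 mice that had received AE9a together with GFP from a retrovirus and were then transplanted into irradiated recipients, and a further transplantation of the leukemia cells is described. The donors were either wild type for Ddit4 (AE9a-Ddit4+/+, 3 libraries) or Ddit4 knockout animals (AE9a-Ddit4-/-, 3 libraries), and RNA was sequenced from leukemia cells of the recipients' bone marrow. Mouse age at sampling was not given in the sources used here, nor was it stated which transplantation the libraries came from or whether those of a group were separate leukemias. As the study describes fewer primary AE9a-Ddit4-/- leukemias than there are libraries here, some of these may share a primary leukemia. The p values therefore measure the spread between libraries, which may be technical.

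TALE proteins carry a homeodomain with a three-amino-acid loop extension. PBX proteins bind DNA together with HOX proteins and sharpen the choice of sites, and MEIS and PKNOX proteins bind PBX and keep it in the nucleus. In blood, Meis1 is best known as the partner of Hoxa9. The pair transforms mouse progenitors when overexpressed together, and Pbx3 is a further partner in leukemias with high HOXA genes. Meis1 is also needed by normal blood stem cells and megakaryocytes.

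Library totals ran from 62141558 to 72717681 counts. Mitochondrial genes held 5.03% to 7.9% of the counts in AE9a-Ddit4+/+ and 11.3% to 16.4% in AE9a-Ddit4-/- libraries. Ddit4, read first as a check of the labels, had 228, 161 and 342 CPM (counts per 1000000, with TMM factors between libraries) in AE9a-Ddit4+/+ libraries 1, 2 and 3 and 84.9, 77.7 and 85.9 CPM in AE9a-Ddit4-/- libraries 1, 2 and 3. Which part of the gene the allele lacks was not stated, so counts over the whole gene are a limited check. The libraries of the genotypes also differed in sex, with the Y-linked Ddx3y at 88.2 to 125 CPM in AE9a-Ddit4-/- and at most 0.0774 CPM in AE9a-Ddit4+/+ libraries. Xist, which is transcribed from the silenced X of female cells, had 566 to 1030 CPM in AE9a-Ddit4+/+ and still 20.3 to 129 CPM in AE9a-Ddit4-/- libraries, while recipients were female. The part of recipient cells in these libraries was not tested. Genotype and sex of the cells cannot be told apart in any value given here. Kit, which marks the progenitors that were transduced, had 24.7 ± 8.92 CPM in AE9a-Ddit4+/+ and 411 ± 103 CPM in AE9a-Ddit4-/- cells (SD, n = 3 each).

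Of the 8 TALE genes, 6 had enough counts to be tested, and 5 of these passed an adjusted p of 0.05 in edgeR's quasi-likelihood test. Meis1, Meis3, Pbx2 and Pbx4 rose and Pbx3 fell in AE9a-Ddit4-/- cells, whereas Pknox1 did not pass, and Meis2 and Pknox2 were too low to be tested. Calls were common in the comparison. Of the 18375 genes tested, 30.1% passed, 19.4% as higher and 10.7% as lower, and the groups did not overlap in 50.1%. The groups did not overlap in any of the 6 tested TALE genes. Their median log2 fold change (AE9a-Ddit4-/- over AE9a-Ddit4+/+) was 1.0, against 0.04 over all genes tested. Meis3 had enough counts only through the AE9a-Ddit4-/- libraries, so it could only come out higher and without overlap. It is therefore no independent support for these counts or this median.

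**Figure D1:**
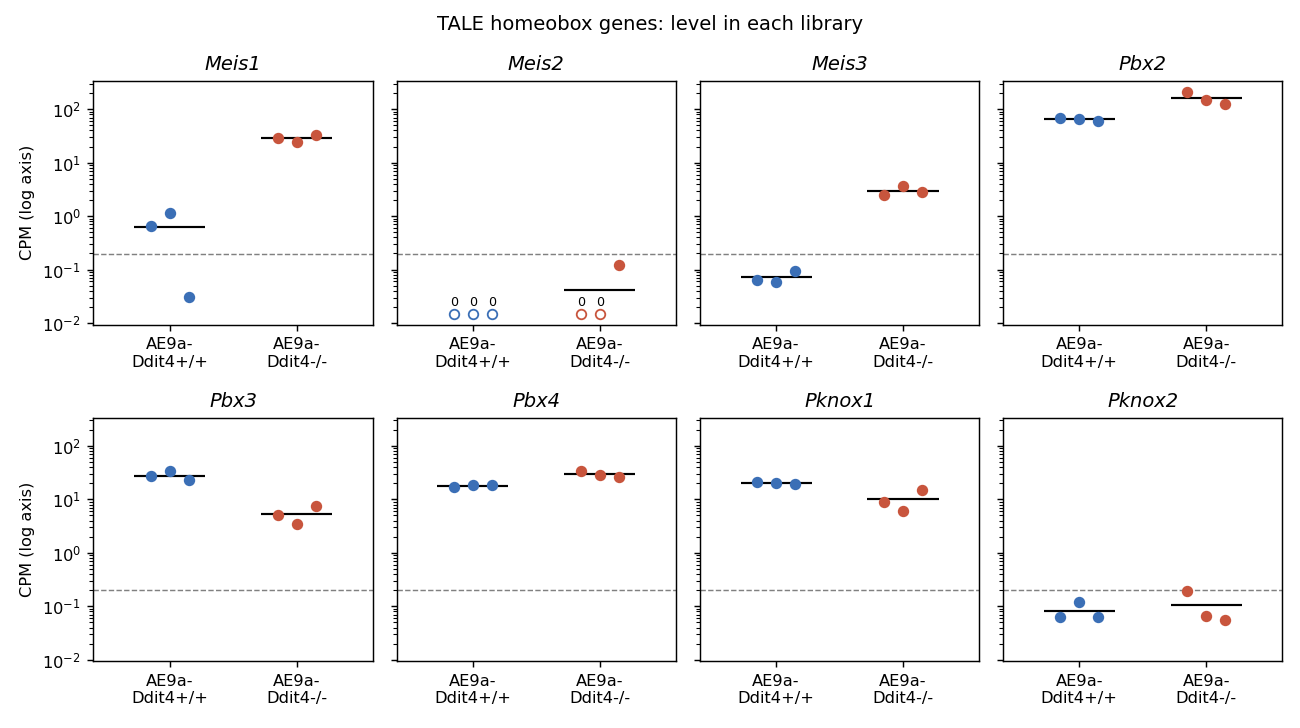
Level of each TALE gene in the 6 libraries, in CPM on a log axis. Points are libraries, black lines are group means (n = 3), open points at the bottom marked 0 are libraries without a count, and the dashed line is the highest limit of detection (12 counts, 0.198 CPM). In AE9a-Ddit4+/+ libraries Meis3 lies under the limit and Meis1 between 0.0309 and 1.15 CPM, and both lie above the limit in all AE9a-Ddit4-/- libraries, while Pbx3 and Pknox1 lie lower in AE9a-Ddit4-/- cells.

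The sequences just before the start sites of Meis1, Meis3 and Pbx2 are shown because Meis1 and Meis3 rose together from low levels, while Pbx2 rose from a high level. RefSeq promoter sequences on GRCm38.p6 matched 5 of the 8 genes (Meis1, Meis2, Meis3, Pbx2 and Pbx4). Each window holds the 250 bases before the start site in RefSeq, 5′ to 3′ on the strand of the gene, at chr11:19018970-19019219 (minus strand) for Meis1, chr7:16175145-16175394 (plus strand) for Meis3 and chr17:34592009-34592258 (plus strand) for Pbx2. The gene spans given with the results run over all GENCODE transcripts, some of which start earlier, so the Meis3 and Pbx2 windows lie within those spans. Capitals mark a CCAAT box (CCAAT) or a GC box (GGGCGG), read on either strand.
Meis1: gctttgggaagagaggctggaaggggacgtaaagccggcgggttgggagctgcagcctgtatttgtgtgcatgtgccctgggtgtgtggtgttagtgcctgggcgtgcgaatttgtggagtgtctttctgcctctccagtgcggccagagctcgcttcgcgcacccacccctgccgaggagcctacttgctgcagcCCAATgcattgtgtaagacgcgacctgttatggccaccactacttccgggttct
Meis3: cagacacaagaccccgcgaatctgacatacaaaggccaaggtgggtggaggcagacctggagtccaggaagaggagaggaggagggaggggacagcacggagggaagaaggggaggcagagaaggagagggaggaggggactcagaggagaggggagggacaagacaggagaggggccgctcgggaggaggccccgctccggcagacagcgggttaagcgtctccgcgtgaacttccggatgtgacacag
Pbx2: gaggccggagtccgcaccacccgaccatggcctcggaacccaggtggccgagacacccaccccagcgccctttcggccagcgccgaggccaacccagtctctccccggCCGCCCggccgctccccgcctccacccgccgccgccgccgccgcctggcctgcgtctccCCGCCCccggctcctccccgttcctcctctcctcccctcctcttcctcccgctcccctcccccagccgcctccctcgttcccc

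The G and C content was 59.6% in Meis1, 63.6% in Meis3 and 77.6% in Pbx2. The median was 52.4% over 32851 promoter windows of the same length. Of all windows, 28.9% held at least as much as Meis1, 20.0% as Meis3 and 2.35% as Pbx2. The other matched windows had 47.6% (Meis2) and 55.6% (Pbx4). The hexamer bound by MEIS and PKNOX proteins (TGACAG, both strands) was in 15.9% of all windows and in none of the 5 matched here, and a motif bound by PBX with HOX proteins (TGATTNAT, both strands) was in 2.82% and likewise in none of the 5. The Meis1 window held 1 CCAAT box, which 33.8% of all windows contain, and the Pbx2 window held 2 GC boxes, which 32.7% contain. The Meis3 window held neither. These matches describe letters in a short window and say nothing of binding.

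Meis1 (ENSMUSG00000020160) spans 18879817 to 19018985 of chromosome 11 (minus strand, GRCm38). It had 42, 78 and 2 counts in AE9a-Ddit4+/+ libraries 1, 2 and 3, and 1837, 1502 and 2392 counts in AE9a-Ddit4-/- libraries 1, 2 and 3. In CPM these were 0.665, 1.15 and 0.0309 against 29.5, 24.7 and 32.5. All AE9a-Ddit4-/- libraries lay far above all AE9a-Ddit4+/+ libraries, and AE9a-Ddit4+/+ library 3 lay under the limit of 12 counts. The level was 0.615 ± 0.561 CPM in AE9a-Ddit4+/+ and 28.9 ± 3.93 CPM in AE9a-Ddit4-/- cells (SD, n = 3 each). Meis1 thus rose by 5.55 on the log2 scale (SE 0.96, edgeR adjusted p 0.00535). A change at least this large in either direction was seen in 5.40% of the genes tested. Because RNA of whole cell samples was measured, more cells with Meis1 and more Meis1 RNA per cell cannot be told apart, here or for the genes that follow.

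An unclassified transcript inside Meis1, Gm37818, shares 1029 exon bases with it on the same strand. It had 0, 5 and 3 counts in AE9a-Ddit4+/+ and 129, 27 and 143 counts in AE9a-Ddit4-/- libraries (log2 fold change 5.14, edgeR adjusted p 0.0108). Reads in the shared bases cannot be assigned to either with certainty. No other gene overlapping Meis1 exceeded 30 counts in a library. Within 500 kb of Meis1, 0 protein-coding genes had enough counts to be tested, so that the change could not be set beside that of coding neighbours.

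Meis3 (ENSMUSG00000041420, chromosome 7, 16175090 to 16186504, plus strand), a less studied relative of Meis1, had 4, 4 and 6 counts in the AE9a-Ddit4+/+ libraries and 157, 221 and 211 counts in the AE9a-Ddit4-/- libraries. The wild-type libraries thus all lay under the limit of detection, while the knockout libraries reached 2.52, 3.64 and 2.87 CPM. Meis3 rose by 5.36 on the log2 scale (SE 0.53, edgeR adjusted p 0.000686). It had enough counts for the test only through the knockout libraries, so it could only be called higher. Since the fitted value of so low a gene depends on the prior count, the ratio of summed counts is given as well. This was 41.9 (95% exact binomial interval 24.8 to 77.1), and 36.6 (14.0 to 136) with counts divided by 4, which allows for fragments counted repeatedly. Both intervals cover counting error only.

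Meis2 (ENSMUSG00000027210, chromosome 2, 115863064 to 116065839, minus strand) had 0 counts in 5 of the 6 libraries and 9 counts in AE9a-Ddit4-/- library 3. A change in Meis2 was not detectable at this depth, as every library lay under the limit of 12 counts, which is 0.163 to 0.198 CPM.

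Pbx2 (ENSMUSG00000034673, chromosome 17, 34591266 to 34597400, plus strand), a broadly expressed PBX gene, had 69.9, 65.9 and 60.2 CPM in AE9a-Ddit4+/+ and 209, 148 and 126 CPM in AE9a-Ddit4-/- libraries. The knockout libraries were all higher and also more spread than the wild-type libraries. The means were 65.3 ± 4.86 and 161 ± 43.3 CPM, and Pbx2 rose 2.47-fold (log2 fold change 1.30, SE 0.23, edgeR adjusted p 0.00554). Pbx2 shares 227 exon bases with its neighbour Gpsm3 on the same strand, whose log2 fold change was -0.04 (edgeR adjusted p 0.946).

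Pbx3 (ENSMUSG00000038718, chromosome 2, 34171457 to 34373142, minus strand) went the other way. It had 27.2, 33.8 and 22.7 CPM in AE9a-Ddit4+/+ and 5.14, 3.47 and 7.42 CPM in AE9a-Ddit4-/- libraries, with each knockout library below each wild-type library. From 27.9 ± 5.6 CPM it fell to 5.35 ± 1.98 CPM, which is 5.22-fold lower (log2 fold change -2.38, SE 0.35, edgeR adjusted p 0.00304). No exon of another annotated gene overlapped its exons. Among 7 tested protein-coding genes within 500 kb, log2 fold changes ran from -0.94 to 0.13, and 1 passed, Gapvd1, which was lower (-0.67, edgeR adjusted p 0.0482) and is named after its value was seen. Mapkap1, the nearest at 33.6 kb, had -0.94 (adjusted p 0.0525). Over all genes tested, 10.7% passed as lower.

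Pbx4 (ENSMUSG00000031860, chromosome 8, 69832491 to 69872292, plus strand), known mainly from the testis, had 17.2, 18.5 and 18.6 CPM in AE9a-Ddit4+/+ and 33.5, 28 and 26.3 CPM in AE9a-Ddit4-/- libraries. The groups did not overlap, and Pbx4 rose 1.62-fold (log2 fold change 0.69, SE 0.21, edgeR adjusted p 0.0432). This call was the least firm of the 5. It was lost when any single library was left out, with adjusted p values of 0.0661 to 0.119, and also with library totals as the only scaling (0.0675) or without a filter on low counts (0.0788).

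**Figure D2:**
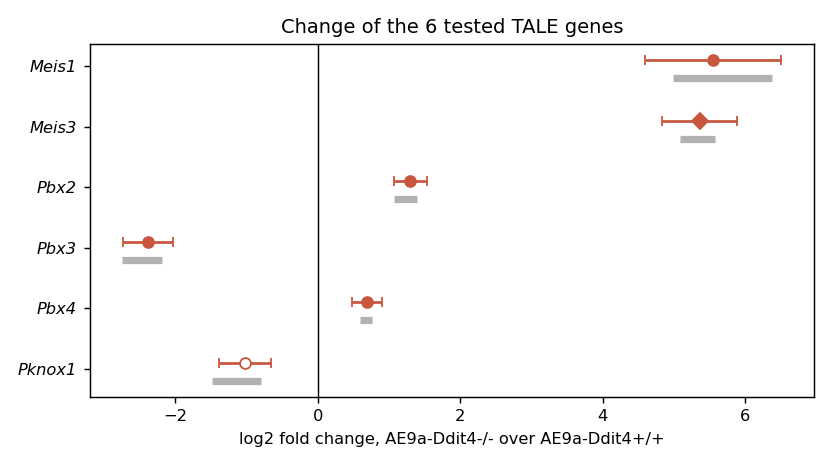
Log2 fold change of the 6 tested TALE genes, AE9a-Ddit4-/- over AE9a-Ddit4+/+. Points with bars are the edgeR estimate and its SE (n = 3 libraries each; filled, adjusted p below 0.05; diamond, all libraries of 1 group at or under 12 counts), and grey bars span the alternative fits. Each gene kept its sign over the alternatives, with Meis1 between 4.99 and 6.37 and Pbx3 between -2.74 and -2.19.

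Pknox1 (ENSMUSG00000006705, chromosome 17, 31564734 to 31607693, plus strand), also called Prep1, competes with MEIS proteins for PBX. It had 21.5, 20.1 and 19.6 CPM in AE9a-Ddit4+/+ and 8.87, 6.12 and 15.2 CPM in AE9a-Ddit4-/- libraries. The groups did not overlap, yet the knockout libraries were spread widely, and the log2 fold change of -1.02 did not pass (SE 0.36, edgeR adjusted p 0.0695). Without AE9a-Ddit4-/- library 3, the highest of its group, it was -1.49 and passed (adjusted p 0.0220), as it did with DESeq2's Wald test (-1.01, adjusted p 0.0258). Pknox2 (ENSMUSG00000035934, chromosome 9, 36890982 to 37147407, minus strand) had 4, 8 and 4 counts in AE9a-Ddit4+/+ and 12, 4 and 4 counts in AE9a-Ddit4-/- libraries. Each library lay at or under the limit, so a difference was not detectable.

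The tested protein-coding genes within 500 kb of the other TALE genes were counted in the same way as those around Pbx3. Over all genes tested, 19.4% passed as higher and 10.7% as lower, with a median log2 fold change of 0.04. Around Pbx2, 15 of 51 rose and 4 fell (median log2 fold change 0.52), and around Pknox1, 7 of 14 rose and 1 fell (2.08). Around Pbx4, 3 of 28 rose and 1 fell (-0.23), and around Meis3, 1 of 16 rose and 2 fell (-0.30). Pknox2 had 14 such neighbours, of which 5 rose (1.36), and Meis2 had 1, which fell (-1.85).

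To compare levels between the genes, CPM were divided by the exon length of each gene in kb. In AE9a-Ddit4+/+ cells the order was Pbx2 (17.9 ± 1.34 CPM per kb), Pbx4 (8.17 ± 0.359), Pbx3 (4.57 ± 0.917) and Pknox1 (2.94 ± 0.146; SD, n = 3 each). The libraries of neighbours in this order did not overlap. Meis1 (0.0584 ± 0.0533) and Meis3 (0.0226 ± 0.00581) followed, and their libraries overlapped. In AE9a-Ddit4-/- cells Pbx2 (44.2 ± 11.9 CPM per kb) and Pbx4 (13.2 ± 1.68) still led, and Meis1 came next (2.75 ± 0.373), above every library of Pknox1 (1.45 ± 0.670). Pknox1, Meis3 (0.948 ± 0.180) and Pbx3 (0.875 ± 0.325) could not be ordered, since their libraries overlapped.

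**Figure D3:**
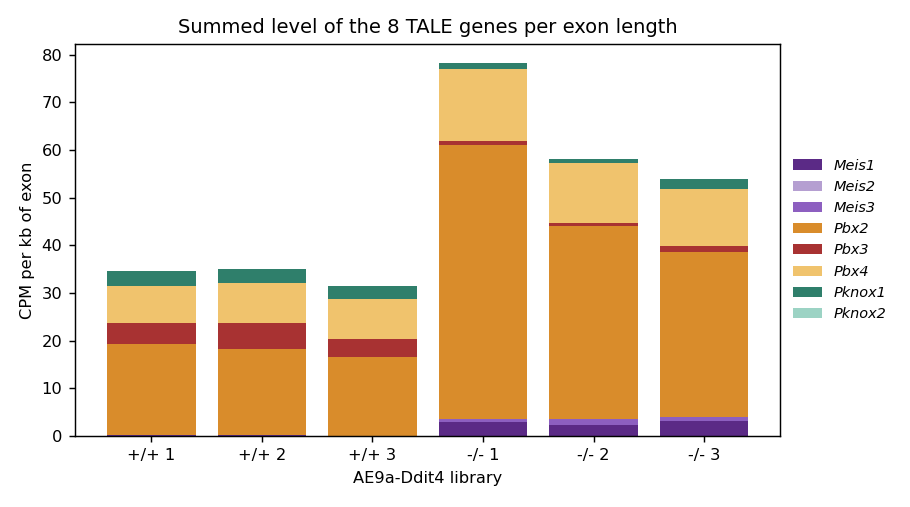
Stacked level of the 8 TALE genes in each library, in CPM per kb of exon. Pbx2 and Pbx4 make up most of every bar. The Pbx3 band narrows from 4.57 to 0.875 CPM per kb on average, and bands of Meis1 and Meis3 are wide enough to see in the AE9a-Ddit4-/- libraries but not in AE9a-Ddit4+/+.

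Summed over Meis1, Meis2 and Meis3, the level went from 0.0831, 0.128 and 0.0322 CPM per kb in AE9a-Ddit4+/+ to 3.6, 3.49 and 4.0 CPM per kb in AE9a-Ddit4-/- libraries. Meis1 gave 67.2% to 77.9% of this sum in the knockout libraries. Summed over Pbx2, Pbx3 and Pbx4, the level went from 28.6 to 32.0 CPM per kb in AE9a-Ddit4+/+ to 47.7 to 73.5 CPM per kb in AE9a-Ddit4-/- libraries. Within this sum the share of Pbx3 was 14.8% ± 2.24 in AE9a-Ddit4+/+ and 1.58% ± 0.836 in AE9a-Ddit4-/- cells, that of Pbx2 was 58.5% ± 2.38 and 75.4% ± 2.87, and that of Pbx4 was 26.7% ± 2.35 and 23.0% ± 2.22 (SD, n = 3 each). The sums cover the genes listed and not every gene of the families. Shares are given as a description, without a test.

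Ratios of counts within a library do not depend on how libraries are scaled. The log2 ratio of Meis1 to Pbx3 counts was -5.34, -4.87 and -9.20 in AE9a-Ddit4+/+ and 2.52, 2.83 and 2.13 in AE9a-Ddit4-/- libraries. Pbx3 reads thus outnumbered Meis1 reads in each wild-type library, and the reverse held in each knockout library. The mean difference was 8.96 on the log2 scale (exact two-sided permutation test, n = 3 each, p = 0.1, the smallest p that 3 against 3 libraries allow). It was 7.60 without AE9a-Ddit4+/+ library 3, which had 2 Meis1 counts, and 9.76 without AE9a-Ddit4+/+ library 2.

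Hoxa9, the HOX partner of Meis1, had 3.58, 3.64 and 3.15 CPM per kb in AE9a-Ddit4+/+ and 0.161, 0.0944 and 0.263 CPM per kb in AE9a-Ddit4-/- libraries. It fell by 4.31 on the log2 scale (SE 0.45, edgeR adjusted p 0.000864). The log2 ratio of Meis1 to Hoxa9 counts was -4.89, -4.13 and -8.83 in AE9a-Ddit4+/+ and 5.02, 5.53 and 4.46 in AE9a-Ddit4-/- libraries, a difference of 10.96 (exact two-sided permutation test, n = 3 each, p = 0.1, again the smallest possible). Without AE9a-Ddit4+/+ library 3 it was 9.52, and without AE9a-Ddit4+/+ library 2 it was 11.87. Between the groups, Hoxa9 was therefore high where Meis1 was low. Within each group, however, the libraries ranked in the same order for Meis1 and for Hoxa9. A relation of the genes within groups was not tested.

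**Figure D4:**
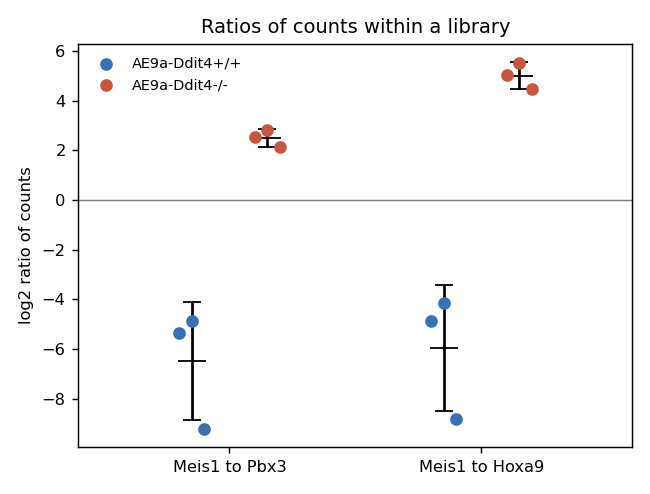
Log2 ratio of Meis1 to Pbx3 counts and of Meis1 to Hoxa9 counts in each library. Points are libraries, and bars are the mean and SD (n = 3). Both ratios lie below 0 in all AE9a-Ddit4+/+ libraries and above 0 in all AE9a-Ddit4-/- libraries, and AE9a-Ddit4+/+ library 3 lies lowest.

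Across the Hox clusters, whose proteins the TALE proteins bind, 9 of 11 Hoxa genes could be tested and all 9 were lower, and 2 of 10 Hoxb genes could be tested and both were higher in AE9a-Ddit4-/- cells, against 10.7% lower and 19.4% higher over all genes tested. Of the 9 Hoxc and 9 Hoxd genes, 0 had enough counts. Hoxb4, a stem cell self-renewal factor, had 0.384 ± 0.290 CPM per kb in AE9a-Ddit4+/+ and 2.56 ± 0.528 CPM per kb in AE9a-Ddit4-/- cells (log2 fold change 2.73, SE 0.59, edgeR adjusted p 0.0126). In the knockout libraries Hoxb4 was the higher of the pair Hoxb4 and Hoxa9, at 1.95 to 2.92 against 0.0944 to 0.263 CPM per kb.

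Genes known as targets of Meis1 and its partners in blood cells were mostly higher or not past the threshold. Of 14 such genes 13 could be tested, 8 were higher and 0 lower, with a median log2 fold change of 1.32, against 19.4% higher, 10.7% lower and a median of 0.04 over all genes tested. The increases were those of Pf4 (6.70), Cd34 (6.45), Erg (5.84), Trib2 (4.64), Epas1 (4.29), Ccnd1 (2.16), Flt3 (1.32) and Myb (0.78) on the log2 scale. Trib2, a pseudokinase that Meis1 is known to activate in leukemia, had 0.801 CPM in AE9a-Ddit4+/+ and 20.0 CPM in AE9a-Ddit4-/- cells on average (SE of the log2 fold change 0.67, edgeR adjusted p 0.00286). Flt3, the cytokine receptor gene often read as a Meis1 target, had 19.0 and 47.6 CPM (SE 0.41, adjusted p 0.0464). Hif1a (-0.23), Sytl1 (0.27), Ccnd3 (0.42), Cdk6 (-0.33) and Msi2 (-0.20) did not pass. Cd34 and Flt3 are also markers of stem and progenitor cells and Pf4 is one of megakaryocytes.

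Among 10 regulators that act on Meis1 in blood cells, 7 did not pass. The 3 that passed are a share near the 30.1% over all genes tested. Kmt2a, Men1 and Dot1l, core components of MLL-dependent transcription, had log2 fold changes of 0.10, 0.72 and 0.14 (edgeR adjusted p 0.765, 0.120 and 0.644). Elf1, an ETS factor, was higher (0.71, adjusted p 0.0335). Psip1, which tethers the MLL complex to chromatin, was lower (-1.52, adjusted p 0.00807), and so was Mllt3, a reader of acylated histones that is fused to MLL in leukemia, from 97.3 to 1.98 CPM (-5.62, adjusted p 0.00100).

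**Figure D5:**
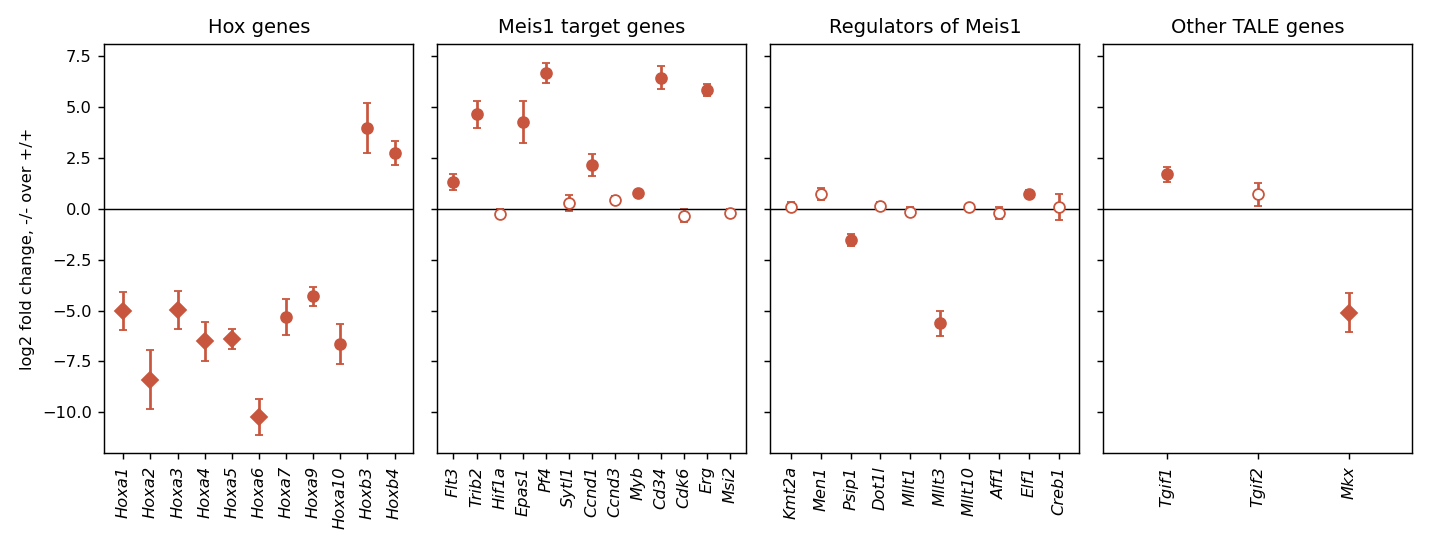
Log2 fold change with SE (AE9a-Ddit4-/- over AE9a-Ddit4+/+, n = 3 libraries each) of the tested Hox genes, targets and regulators of Meis1 and other TALE genes. Filled symbols have an edgeR adjusted p below 0.05, and diamonds are genes with all libraries of 1 group at or under 12 counts, whose fitted value depends on the prior count. The 9 Hoxa genes lie below 0, whereas targets of Meis1 lie above 0 or near it.

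Summed levels of markers of several other cell types were also higher in AE9a-Ddit4-/- cells. The counts of markers called higher or lower stand against 19.4% higher and 10.7% lower over all genes tested. The 13 megakaryocyte and platelet markers summed to 143 to 226 CPM in AE9a-Ddit4+/+ and to 2420 to 3340 CPM in AE9a-Ddit4-/- libraries, with 9 of 12 tested genes higher and Vwf lower. Stroma and endothelium markers summed to 6.98 to 12.5 and 349 to 355 CPM (7 of 11 higher), stem and progenitor markers to 161 to 238 and 1400 to 1540 CPM (9 of 11 higher), T and NK cell markers to 10.4 to 48.0 and 118 to 156 CPM (10 of 11 higher), and B cell markers to 1.15 to 5.73 and 75.1 to 153 CPM (8 of 9 higher). In the stroma and endothelium list, Pdgfrb (154 CPM) and Pecam1 (137 CPM) had the highest means in AE9a-Ddit4-/- cells. Col1a1, Col1a2, Col3a1 and Lepr of that list did not pass (edgeR adjusted p 0.199, 0.0748, 0.461 and 0.846). Erythroid markers, at 7730 to 16300 CPM in AE9a-Ddit4+/+ and 523 to 1100 CPM in AE9a-Ddit4-/- libraries (10 of 12 lower), were lower together with Pbx3 and Hoxa9. Neutrophil markers summed to 7520 to 12400 and 1940 to 5410 CPM, with 4 of 12 lower. The other 8 did not pass, among them Mpo (-0.10 on the log2 scale) and Ctsg (1.37, edgeR adjusted p 0.0842). The sums of monocyte and macrophage markers overlapped between the groups (668 to 1100 and 324 to 1170 CPM). Among those 10 genes Cd68 had the lowest unadjusted edgeR p (0.0250), which did not pass after adjustment. The endothelial Emcn and the T cell genes Cd3e and Cd3g lay at or under 12 counts in each wild-type library, and no marker was at 0 counts in all 6 libraries. The part of these cells in the changes of the TALE genes was not tested.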

How the data were processed

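RNA-seq libraries from bone marrow leukemia cells of AE9a-Ddit4+/+ and AE9a-Ddit4-/- mice were analysed, 3 per genotype, grouped by sample title. The authors deposited whole-number counts per Ensembl gene, and each sample column was used. GRCm38 (mm10) is named in the submitters' processing notes. The aligner, the counter, the annotation and the use of strand are not given in the sources used here, and the library kit differs between the labels (mRNA) and the methods (rRNA-depleted, directional). In each library low counts piled up at multiples of 4 (genes with 4, 8 or 12 counts outnumbered those with 2, 6 or 10 by 1.40 to 1.62 times), so some fragments may have been counted repeatedly. The limit of detection was set at 12 counts for this reason. It covers counting error only.

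Genotype was tested in R 4.3.3 with edgeR 4.0.16 (filterByExpr, TMM factors of 0.921 to 1.05, robust glmQLFit and glmQLFTest) on the whole table. P values were Benjamini-Hochberg adjusted over 18375 genes, with a threshold of 0.05. SE is the absolute log2 fold change over the square root of F. The script was tested on simulated data. Ratios used a pseudocount of 0.5 and scipy 1.17.1. Positions and exon lengths (all exons of a gene merged) came from GENCODE M21, which held 99.5% of the identifiers. Promoters came from RefSeq. Alternatives were DESeq2 1.42.0, other scalings and filters, counts divided by 4, removal of mitochondrial genes, a replicate block and leaving out each library.

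The genes and all lists were chosen with earlier results of these data known. Named genes are the 8 TALE genes, Ddit4, tested members of the lists, and for Meis1 and Pbx3 the 3 genes of most similar pattern. Outside this rule, the sex-linked genes, genes overlapping or near a TALE gene, single cell type markers and untested list genes at low counts were named after their values were seen. Other genes of these families are not reported here.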

Additional observations from a re-analysis of the deposited data

How the results depend on the processing

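Meis1, Meis3, Pbx2 and Pbx3 kept their direction and an adjusted p below 0.05 in every alternative in which they could be tested (13 each for Meis1 and Meis3, 14 each for Pbx2 and Pbx3), with log2 fold changes of 4.99 to 6.37, 5.08 to 5.58, 1.07 to 1.40 and -2.74 to -2.19. Meis1 was lowest when wild-type library 3 was left out and highest when wild-type library 2 was. When each library had to hold at least 10 counts, 3 TALE genes passed instead of 5, because Meis1 and Meis3 were then not tested. Pbx4 lost the threshold in 9 of 14 alternatives (adjusted p 0.00181 to 0.141 over all). Pknox1 gained it in 2 of 14, DESeq2 and without AE9a-Ddit4-/- library 3. Same-numbered libraries did not deviate together (correlations across genes of -0.165, -0.194 and -0.049 for numbers 1, 2 and 3), so the numbers were not taken to pair samples. A replicate block gave 2964 genes past the threshold instead of 5535 and 4 TALE genes, with Pbx4 lost (adjusted p 0.141). With a pseudocount of 4 the Meis1 ratios differed by 8.47 (to Pbx3) and 10.39 (to Hoxa9). Depth limits Meis2 and Pknox2. With no filter on low counts their log2 fold changes were 4.49 (SE 2.59, edgeR adjusted p 0.294) and 0.32 (SE 1.15, adjusted p 0.879).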

Other observations

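The other TALE homeobox genes, which are not partners of HOX proteins in the same way, were mostly low. Of 11 such genes 3 could be tested. Tgif1, a repressor in TGF-beta and retinoid signaling, rose from 19.2 ± 5.41 to 61.9 CPM on average, with 17.2, 25.3 and 15.1 CPM in AE9a-Ddit4+/+ and 90.3, 41.3 and 54.1 CPM in AE9a-Ddit4-/- libraries, an increase of 1.69 on the log2 scale (SE 0.35, edgeR adjusted p 0.0106). Mkx, a tendon regulator, fell from 140, 76 and 131 counts in AE9a-Ddit4+/+ to 0, 5 and 5 counts in AE9a-Ddit4-/- libraries (edgeR adjusted p 0.00675). The difference in Tgif2, 0.72 on the log2 scale, did not pass (SE 0.56, adjusted p 0.372). Of the Irx genes, Irx4 and Irx6 had 0 counts in all 6 libraries, and none of the others exceeded 20 counts in a library.

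Likeness was measured over 14021 tested genes that reached 12 counts in all 6 libraries. Those whose log2 CPM relative to the wild-type mean lay nearest to Meis1 over the 6 libraries were Rbpms, Nckap5l and Hook1, with root mean square differences of 0.68, 0.70 and 0.74 on the log2 scale. Rbpms, an RNA-binding protein gene, had 0.744, 3.20 and 0.263 CPM in AE9a-Ddit4+/+ and 55.2, 58.7 and 52.8 CPM in AE9a-Ddit4-/- libraries. In each of these genes AE9a-Ddit4+/+ library 3 was the lowest library and AE9a-Ddit4+/+ library 2 the highest of the wild-type libraries, as for Meis1. Nearest to Pbx3 were Slc39a3, a zinc transporter gene, Tnk2, a tyrosine kinase gene, and Ampd3, an AMP deaminase gene, with differences of 0.22, 0.25 and 0.26. Tnk2 had 69.8, 92.4 and 74.7 CPM in AE9a-Ddit4+/+ and 18.8, 8.12 and 17.2 CPM in AE9a-Ddit4-/- libraries. These genes were picked for their likeness, which was not tested.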
